A study of Rattus norvegicus with 6 samples.

Results

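The genes described here are the rat olfactory receptor genes with symbols Olr401 to Olr850 that had an H3K27me3 peak in cultured heart muscle cells. They were chosen by their listing in at least 1 of 4 libraries and by the number in their symbol. The rule gave 138 entries, each with its own Ensembl gene ID, among 22427 genes listed in any library and 646 listed genes with an Olr number. The 138 entries carry 136 different symbols, since Olr550 and Olr845 each have 2 IDs. Being listed is the measurement that selected the genes, so everything below on which library lists them is a description, without a test. Just inside the limits of the range, Olr401 was listed in α-KG 1 and both controls and Olr850 in control 1. Just outside, Olr400 was listed in both controls and Olr851 in both α-KG libraries and control 1.

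The study immunoprecipitated chromatin carrying trimethylated lysine 27 of histone H3 (H3K27me3) from primary cardiomyocytes of newborn Sprague Dawley rats and sequenced the DNA. Cells had received α-ketoglutarate (α-KG) at 5 mM, which mitochondria make in the citric acid cycle and histone demethylases consume, or phosphate-buffered saline as control, each for 24 h. All cells were grown in serum-containing medium on coated plates. Each treatment has 2 H3K27me3 libraries, called α-KG 1, α-KG 2, control 1 and control 2, and the 2 input samples, whose antibody label is IgG, were not analysed here. The labels give no genotype, no age beyond neonatal, no purity of the cultures and no statement on whether replicates were separate cultures or pools of animals, so the spread between replicates may be technical. Each library is given as a list of genes with a peak. It has no score, no position and no read count, so the depth is unknown, and an absent entry can mean no mark or too weak a signal. In bulk chromatin, fewer cells with the mark and less mark per cell cannot be told apart. Of the 12 cardiomyocyte marker genes checked, 11 had an entry. Of these, 6 were in all 4 libraries, as were 62.8% of all listed genes. Among the rest, Ryr2 was listed by control 1 and control 2 only, and Mef2c by α-KG 1 and α-KG 2 only. Tnni3 was in α-KG 1 alone, Myh7 in α-KG 2 alone and Nppa in control 2 alone. A peak list measures no RNA, so it does not check the cell type.

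Olfactory receptors are G protein-coupled receptors with an intronless coding region that form one of the largest gene families in mammals. In the nose, each sensory neuron expresses a single receptor allele and keeps the others in compact heterochromatin marked chiefly by methylation of lysine 9 of histone H3 and lysine 20 of histone H4. A bound odorant activates the G protein subunit encoded by Gnal, which stimulates the adenylyl cyclase encoded by Adcy3 and so opens a cyclic nucleotide-gated channel. H3K27me3 is placed by Polycomb repressive complex 2, whose best known targets are silent developmental genes with CpG-rich promoters. All 138 entries carry the domain name of olfactory receptors in the deposited lists. The odorants of most of these receptors are not known.

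The start regions of the genes are printed for 3 sets that the results turn on. RefSeq's table for assembly GRCr8 holds a window of 300 bases, from 250 before to 50 after the annotated gene start, for 110 of the genes (27 of the 138 entries have none). The start codon ATG stood at the annotated start in 110 of these 110 windows, so the gene models hold no untranslated leader and the windows show the bases before the coding region rather than a mapped promoter. Capitals mark that start codon. Olr705 (Or4a70 in RefSeq, chr3:96005279-96005578, minus strand) and Olr716 (chr3:96234901-96235200, minus strand) are neighbours among the listed genes, and both controls but neither α-KG library listed them.
Olr705: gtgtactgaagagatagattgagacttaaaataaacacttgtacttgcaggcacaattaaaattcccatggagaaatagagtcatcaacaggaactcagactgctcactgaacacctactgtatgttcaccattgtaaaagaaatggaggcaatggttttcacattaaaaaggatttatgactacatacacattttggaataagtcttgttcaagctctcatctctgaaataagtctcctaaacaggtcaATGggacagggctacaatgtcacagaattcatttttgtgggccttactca
Olr716: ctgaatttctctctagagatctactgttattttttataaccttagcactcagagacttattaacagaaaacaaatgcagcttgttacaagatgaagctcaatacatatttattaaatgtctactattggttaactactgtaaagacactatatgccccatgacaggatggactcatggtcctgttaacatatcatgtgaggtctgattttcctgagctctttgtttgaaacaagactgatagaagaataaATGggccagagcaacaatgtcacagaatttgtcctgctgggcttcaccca

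Olr821 (Or2a57, chr4:73046089-73046388, plus strand) and Olr824 (Or6d12, chr4:151320623-151320922, plus strand) were listed in all 4 libraries.
Olr821: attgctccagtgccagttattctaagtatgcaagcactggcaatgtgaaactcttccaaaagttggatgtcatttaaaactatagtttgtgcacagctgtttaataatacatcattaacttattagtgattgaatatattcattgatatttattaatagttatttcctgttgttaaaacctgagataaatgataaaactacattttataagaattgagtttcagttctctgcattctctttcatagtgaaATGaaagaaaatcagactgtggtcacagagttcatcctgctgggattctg
Olr824: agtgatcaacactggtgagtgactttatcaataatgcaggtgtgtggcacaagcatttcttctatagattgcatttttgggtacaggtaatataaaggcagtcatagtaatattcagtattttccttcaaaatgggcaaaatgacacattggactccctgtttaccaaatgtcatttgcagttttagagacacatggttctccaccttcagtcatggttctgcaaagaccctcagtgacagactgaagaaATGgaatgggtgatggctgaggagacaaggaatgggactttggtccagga

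Olr831 (Or6d15, chr4:151491929-151492228, minus strand) and Olr832 (Or6d15b, chr4:151512761-151513060, minus strand) have the most similar windows of any pair of the 110 genes, and this pair was chosen after its values were seen. Both were listed in α-KG 1, control 1 and control 2 and not in α-KG 2.
Olr831: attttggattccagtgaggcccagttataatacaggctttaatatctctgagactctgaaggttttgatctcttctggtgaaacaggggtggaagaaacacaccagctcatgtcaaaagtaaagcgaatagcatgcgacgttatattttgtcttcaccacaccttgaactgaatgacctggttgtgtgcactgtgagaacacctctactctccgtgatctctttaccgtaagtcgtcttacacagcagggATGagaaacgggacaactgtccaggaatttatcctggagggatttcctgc
Olr832: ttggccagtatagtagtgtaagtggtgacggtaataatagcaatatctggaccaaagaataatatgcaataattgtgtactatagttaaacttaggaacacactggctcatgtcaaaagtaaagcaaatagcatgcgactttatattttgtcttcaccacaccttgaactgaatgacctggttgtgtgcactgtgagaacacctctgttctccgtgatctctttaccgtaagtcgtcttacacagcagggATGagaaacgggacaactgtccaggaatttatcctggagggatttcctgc

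The α-KG libraries listed fewer of the receptor genes than the controls, and most of that gap came from α-KG 2. α-KG 1 listed 72 of the 138 entries (52.2%) and α-KG 2 listed 31 (22.5%), against 92 (66.7%) in control 1 and 79 (57.2%) in control 2. The groups did not overlap, with α-KG 1 (72) and control 2 (79) the nearest. For all listed genes the shares were 80.8% in α-KG 1 and 85.5% in α-KG 2, against 76.9% in control 1 and 82.2% in control 2, which overlapped. For the receptor genes the means were 51.5 ± 29.0 entries for α-KG and 85.5 ± 9.19 for control (SD, n = 2 each). The difference, α-KG minus control, was -34. Within replicate numbers the difference was -20 for replicate 1 and -48 for replicate 2. Without α-KG 2 the difference was -13.5 and without α-KG 1 it was -54.5. Since α-KG 2 stood 41 entries below α-KG 1 while control 2 stood 13 below control 1, the group difference was smaller than the spread within the α-KG group.

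α-KG 2 had the fewest receptor genes although it had the longest list of all genes. The lists held 18120 genes in α-KG 1 and 19181 in α-KG 2, against 17245 in control 1 and 18442 in control 2. Per 1000 listed genes, the receptor genes made up 3.97 in α-KG 1 and 1.62 in α-KG 2, against 5.33 in control 1 and 4.28 in control 2. Scaling every library to the same list length gave a difference of -36.8 entries between the group means. The receptors numbered up to Olr400 had a like order, with 52.2% of 182 entries in α-KG 1 and 33.0% in α-KG 2, against 66.5% in control 1 and 58.2% in control 2. For the 326 entries from Olr851 upward the shares were 68.7% and 45.1% in α-KG 1 and α-KG 2, against 69.9% and 69.6% in control 1 and control 2. The low listing in α-KG 2 is therefore not particular to Olr401 to Olr850, and whether it is stronger there was not tested.

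**Figure D1:**
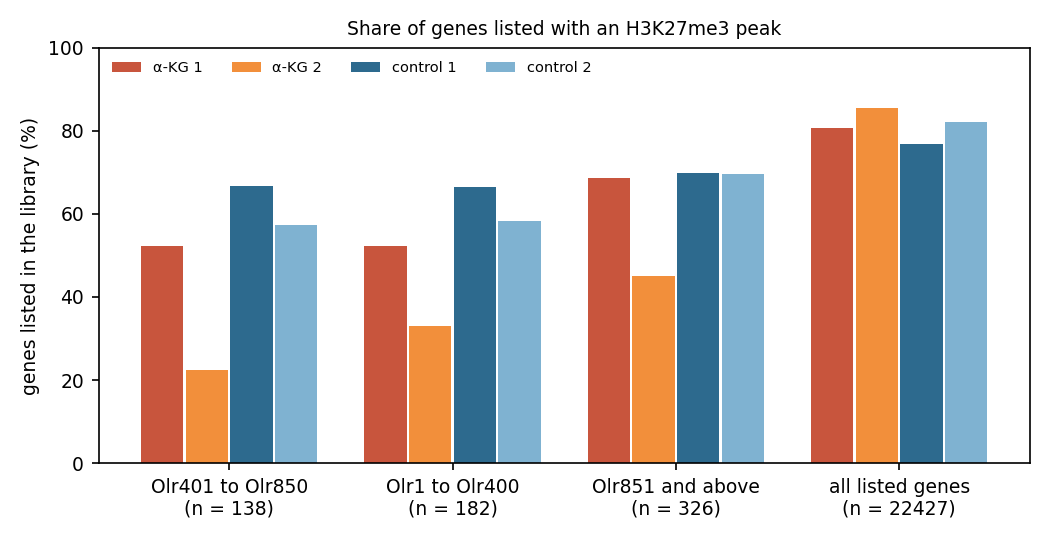
Share of genes listed with an H3K27me3 peak (%, y axis) in α-KG 1, α-KG 2, control 1 and control 2 for Olr401 to Olr850, the receptors on either side of that number range, and all listed genes (x axis, 1 bar per library). α-KG 2 is the lowest bar of all 3 receptor groups (22.5% for Olr401 to Olr850) and the highest bar for all genes (85.5%).

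Few of the receptor genes were listed steadily. Listing in all 4 libraries held for 14 of the 138 entries (10.1%), against 62.8% of all listed genes and 21.9% of the 508 other Olr entries. At the other end, 59 entries (42.8%) were in a single library, against 28.9% of the other Olr entries and 13.0% of all listed genes. The receptors up to Olr400 came near the range, with 13.7% in all 4 libraries and 37.4% in a single library. From Olr851 upward the shares were 26.4% and 24.2%. Unsteady listing is therefore not particular to Olr401 to Olr850. A further 36 entries were in 2 libraries and 29 in 3. The 14 entries in all 4 libraries were Olr403, Olr411, Olr434, Olr448, Olr486, Olr582, Olr663, Olr745, Olr771, Olr821, Olr823, Olr824, Olr839 and Olr848. By RefSeq symbol they come from 7 receptor families, and each of the 7 groups of neighbouring genes described below holds at least 1. Entries in 1 library were spread over α-KG 1 (18), α-KG 2 (5), control 1 (21) and control 2 (15), so single listings were not confined to a treatment. For the other Olr entries these counts were 39, 18, 52 and 38, in the same order of libraries, with α-KG 2 again the lowest. For all listed genes they were 455, 1561, 388 and 509, with α-KG 2 the highest.

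**Figure D2:**
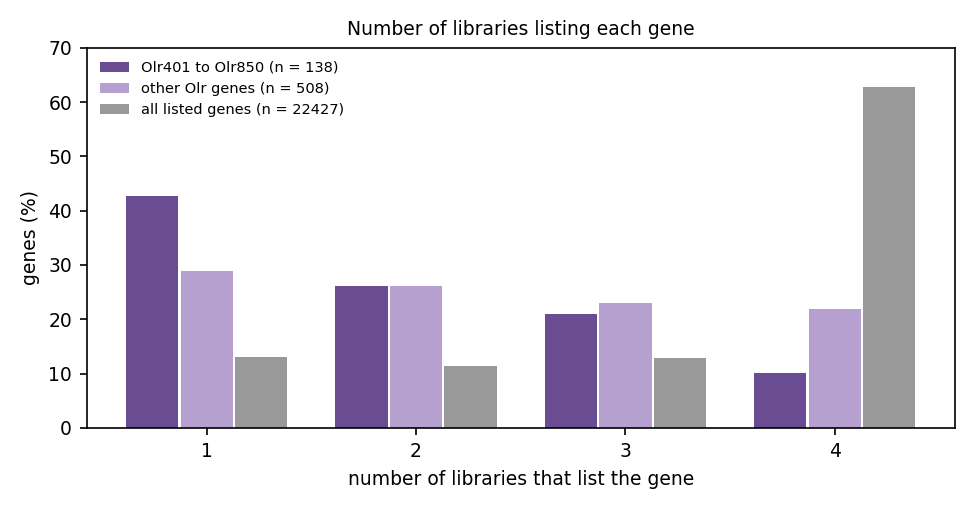
Share of genes (%, y axis) by the number of libraries that list them (x axis, 1 to 4) for Olr401 to Olr850, the other Olr genes and all listed genes. For Olr401 to Olr850 the bar is highest at 1 library (42.8%) and lowest at 4 (10.1%), and for all listed genes it is highest at 4 (62.8%).

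Few receptor genes divided cleanly by treatment. With all libraries counted, those that did divided in 1 direction, but without α-KG 2 both directions were near equal in number. The control-only pattern, meaning an entry in each control and no entry in the α-KG libraries, held for 18 of the 138 entries (13.0%), against 2.30% of all listed genes and 9.45% of the other Olr entries. Of the 56 entries that both controls listed, 32.1% were in neither α-KG library, against 28.4% for the receptors up to Olr400, 19.3% for all other Olr entries and 3.22% for all listed genes. The reverse, α-KG-only pattern held for 0 of the 138 entries, against 3.25% of all listed genes and 18 of the 508 other Olr entries (3.54%). The rule that chose the genes used the same lists, so neither share is a test. The control-only count was 39 without α-KG 1, 21 without α-KG 2, 33 without control 1 and 39 without control 2. The α-KG-only count was 5 without α-KG 1, 18 without α-KG 2, 5 without control 1 and 0 without control 2. Without α-KG 2 the counts were thus 21 control-only and 18 α-KG-only entries. The shares of all listed genes with 1 library left out were not computed.

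The 18 control-only genes were scattered over the number range. They were Olr404, Olr443, Olr485, Olr545, Olr556, Olr561, Olr583, Olr660, Olr697, Olr705, Olr716, Olr729, Olr747, Olr753, Olr773, Olr776, Olr801 and Olr809. By RefSeq symbol, Olr545, Olr556 and Olr561 are 3 of the 5 entries of subfamily Or10ag, whose other members Olr555 and Olr557 were listed in control 1 alone and in α-KG 1 alone. Only Olr705 and Olr716, whose windows are printed above, stood next to each other among the listed genes, and their numbers are not consecutive. The pattern with 3 libraries that leaves out α-KG 2 was more frequent, with 21 entries, than those that leave out control 2 (5), α-KG 1 (3) or control 1 (0). It took 15.2% of the entries, against 14.2% of the other Olr entries and 3.80% of all listed genes, so it was about as frequent among the other receptors. Those 21 include Olr401 and Olr402, both of subfamily Or1j, and Olr830, Olr831 and Olr832, all of subfamily Or6d.

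Every receptor gene that both α-KG libraries listed was also listed in control 1. These were 19 entries, the 14 in all 4 libraries together with Olr422, Olr804, Olr829, Olr836 and Olr838, which control 2 did not list. Both α-KG libraries listed 156 of the other Olr entries, of which 18 were in neither control and 13 in control 2 only. For all listed genes these counts were 729 and 1101 of 16287. Of the 31 entries in α-KG 2, 19 (61.3%) were also in α-KG 1, 24 (77.4%) in control 1 and 19 (61.3%) in control 2. Of the 72 entries in α-KG 1, 19 (26.4%) were in α-KG 2, 48 (66.7%) in control 1 and 41 (56.9%) in control 2. The controls shared 56 entries, which is 60.9% of control 1 and 70.9% of control 2. Across all listed genes 89.9% of α-KG 1 was also in α-KG 2 and 92.8% of control 1 in control 2. The share of α-KG 2 also in control 1 was close to that of the receptor genes, at 79.5% of all listed genes in α-KG 2.

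Along the number order the listed genes formed runs that were longest in control 1 and alternated with gaps that were longest in α-KG 2. A run here is an unbroken stretch of listed members, passing over numbers with no entry. Runs and gaps may also cross between the groups of neighbouring genes described below, so they need not be continuous on a chromosome. α-KG 1 had 35 runs, of which 19 were of a single gene, and its longest held 10 genes, from Olr422 to Olr442, in 2 groups. α-KG 2 had 20 runs, 13 of them of a single gene. Its longest held 5 genes, Olr818, Olr821, Olr823, Olr824 and Olr825, in 2 groups. Control 1 had 30 runs with 12 single genes. Its longest held 18 entries, from Olr816 through to Olr850, in 4 groups on chromosomes 4 and 5. Control 2 had 36 runs with 14 single genes, and its longest held 5 entries, first from Olr619 to Olr631. Runs of 3 or more held 37 of the 72 entries of α-KG 1 and 8 of the 31 of α-KG 2, against 64 of 92 in control 1 and 45 of 79 in control 2.

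Long stretches without a listing were found in α-KG 2. Its longest held 17 consecutive members, from Olr583 to Olr660, and it had further stretches of 16, from Olr535 to Olr581 and from Olr772 to Olr801. The longest such stretch held 6 members in α-KG 1 (Olr670 to Olr697), 3 in control 1 (first Olr439 to Olr442) and 4 in control 2 (Olr421 to Olr424). A library that lists fewer members has shorter runs and longer gaps by construction, so both lengths restate its count in part. Neighbours did not usually share their full listing, since 18 of the 137 pairs of adjacent entries had the same state in all 4 libraries. The share among pairs that are not neighbours was not computed, so the count does not set neighbours apart from other pairs. The longest run in all 4 libraries was Olr821, Olr823 and Olr824, which crosses from group 4 to group 5. Its length was 2 when runs followed RefSeq gene order and ended at group limits. It was also 2 when only the next whole number counted as a neighbour. The longest run in 1 library alone was Olr439, Olr441 and Olr442, 3 genes of subfamily Or5ak in α-KG 1.

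**Figure D3:**
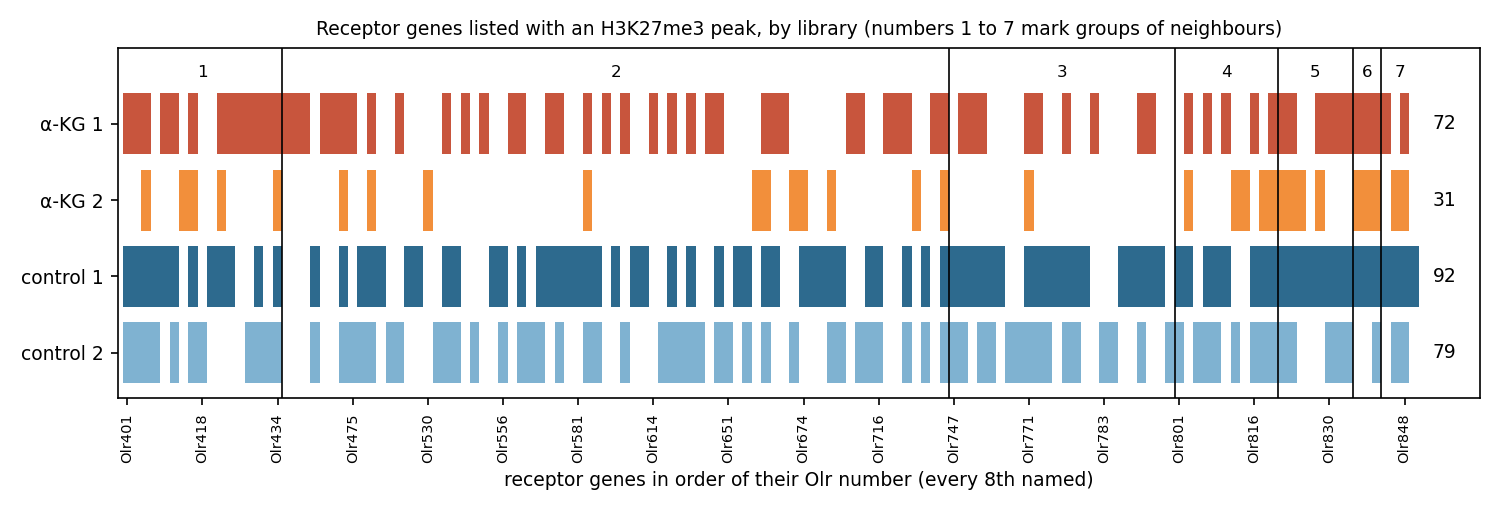
Each filled block is a receptor gene listed with an H3K27me3 peak, in order of Olr number along the x axis, with 1 row per library (α-KG 1, α-KG 2, control 1, control 2 from the top), the number listed at the right and vertical lines between 7 groups of neighbouring genes. The α-KG 2 row has 31 filled blocks and long empty stretches in groups 2 and 3. The control 1 row is filled without a break from Olr816 to Olr850, across 4 groups.

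The genes fall into 7 groups of neighbours on 3 chromosomes. The symbols of 136 entries were found among the current or older symbols of RefSeq's GRCr8 table, and Olr702 and Olr763 were not, so they took the group of the numbers around them. A gap of over 1 Mb in that assembly began a new group. The deposited lists follow build rn6, so GRCr8 served for names, neighbours and the printed windows. Groups 1 to 3 lie on chromosome 3 (Olr401 to Olr434, Olr439 to Olr745 and Olr747 to Olr792), groups 4 and 5 on chromosome 4 (Olr801 to Olr821 and Olr823 to Olr832) and groups 6 and 7 on chromosome 5 (Olr836 to Olr839 and Olr845 to Olr850). RefSeq holds 325 genes numbered in the range, and 134 of them (41.2%) had an entry. The other 191 may have had no peak or no entry under that symbol in the annotation behind the lists.

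Of the 3 chromosomes, chromosome 3, with 112 of the 138 entries, had the lowest share in α-KG 2. There α-KG 1 listed 56 and α-KG 2 listed 17 of 112 entries, against 69 in control 1 and 63 in control 2. On chromosome 4, α-KG 1 listed 11 and α-KG 2 listed 9 of 19 entries, against 16 in control 1 and 13 in control 2. On chromosome 5, both α-KG libraries listed 5 of 7 entries, against 7 in control 1 and 3 in control 2. The share in α-KG 2 was thus 15.2%, 47.4% and 71.4% on chromosomes 3, 4 and 5, from unequal numbers of genes that sit in few clusters, and the difference between chromosomes was not tested. Of the 18 control-only entries, 16 were on chromosome 3, 2 on chromosome 4 and 0 on chromosome 5, close to how the entries themselves divide. Olr genes outside the range also varied by chromosome in α-KG 2. It listed 2 of 11 (18.2%) on chromosome 13, 6 of 21 (28.6%) on chromosome 20, 57 of 174 (32.8%) on chromosome 1 and 9 of 10 on chromosome 5, so a low share is not particular to chromosome 3.

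Group 3, Olr747 to Olr792, had the lowest share in α-KG 2. Of its 24 entries, α-KG 1 listed 9 and α-KG 2 listed 1, against 18 in control 1 and 15 in control 2. The entry listed in α-KG 2 was Olr771 (Or4k50), which was in all 4 libraries. The 14 Or4f entries, all in this group, had 4 listings in α-KG 1 and 0 in α-KG 2, against 10 in control 1 and 7 in control 2. Here both α-KG libraries stood below both controls. In group 2, the largest, α-KG 1 listed 34 and α-KG 2 listed 11 of 71 entries, against 39 in control 1 and 37 in control 2, and 39 of the 71 were in a single library. In group 1, which holds the 8 Or1j entries, α-KG 1 listed 13 and α-KG 2 listed 5 of 17, against 12 in control 1 and 11 in control 2. α-KG 1 was there above both controls.

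The groups on chromosomes 4 and 5 held 3 to 11 entries each. In group 4, each α-KG library listed 5 of 11 entries and each control 8. In group 5, which holds the 7 Or6d entries and Olr823 (Or13a1), α-KG 1 listed 6 and α-KG 2 listed 4 of 8, against 8 in control 1 and 5 in control 2. The 3 entries of group 6, Olr836, Olr838 and Olr839, were in α-KG 1, α-KG 2 and control 1, and control 2 listed Olr839 alone. In group 7, each α-KG library listed 2 of 4 entries, against 4 in control 1 and 2 in control 2. The mean number of libraries per entry was 2.36 in group 4, 2.88 in group 5, 3.33 in group 6 and 2.5 in group 7, against 2.41 in group 1, 1.70 in group 2 and 1.79 in group 3. RefSeq's numbered genes had an entry in 17 of 27 cases in group 1, 69 of 216 in group 2, 23 of 40 in group 3, 11 of 18 in group 4, 8 of 10 in group 5, 3 of 7 in group 6 and 3 of 6 in group 7.

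**Figure D4:**
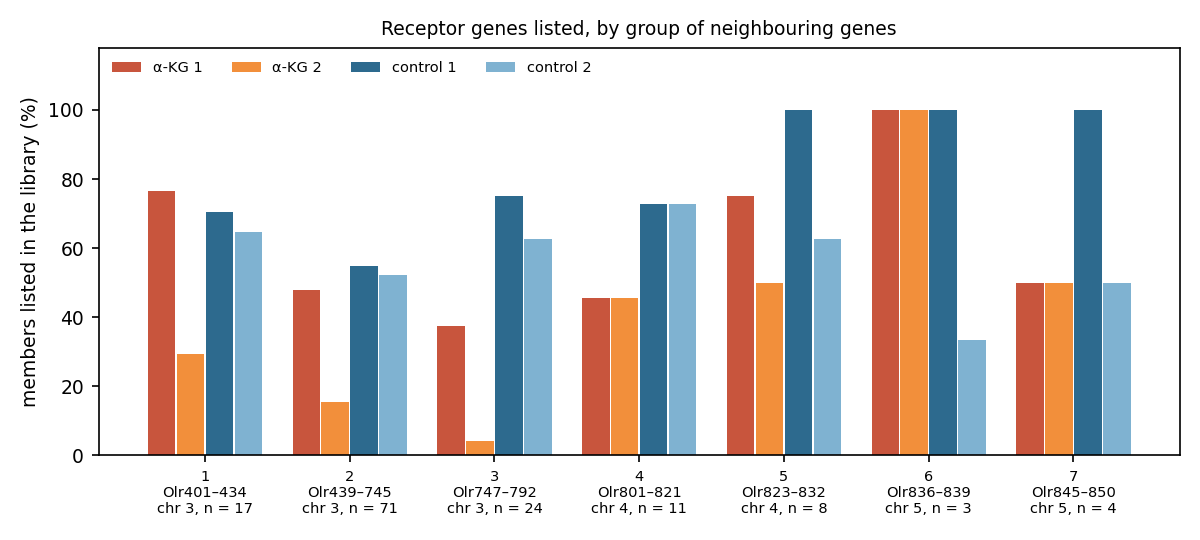
Share of the members of each of the 7 groups of neighbouring genes (x axis, with their number range, chromosome and number of entries) that each library listed (%, y axis, 1 bar per library). The α-KG 2 bar is lowest in groups 1 to 3 on chromosome 3 (29.4%, 15.5% and 4.17%) and reaches 100% in group 6, which has 3 entries.

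Genes beside the receptor groups did not have the low listing in α-KG 2. Olfactory, vomeronasal and trace amine receptors and genes with LOC symbols were left out, while other receptors, such as the taste receptor gene Tas2r126, were kept. The 5 nearest remaining protein-coding genes with an entry on each side of each group gave 70 genes. Of these α-KG 1 listed 58 and α-KG 2 listed 63, against 52 in control 1 and 56 in control 2, and 43 were in all 4 libraries. The control-only pattern held for 2 of the 70, the nucleoporin gene Nup160 beside group 2 and Bbox1, which encodes a carnitine synthesis enzyme, beside group 3. Around group 3, α-KG 1 listed 9 and α-KG 2 listed 7 of the 10 flanking genes, against 8 in control 1 and 9 in control 2. There α-KG 2 was the lowest library for the flanking genes too. Over all 1146 entries on chromosome 3 that are no olfactory receptors, α-KG 1 listed 81.1% and α-KG 2 89.1%, against 75.0% in control 1 and 82.4% in control 2. Among those entries α-KG 2 thus had the highest share on the chromosome where its share of receptor genes was 15.2%.

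By receptor family, the order of the libraries was not the same everywhere. Family Or4, with 52 entries the largest, had 22 listings in α-KG 1 and 8 in α-KG 2, against 34 in control 1 and 30 in control 2. Family Or5, with 26 entries, had 17 in α-KG 1 and 3 in α-KG 2, against 12 in each control, so α-KG 1 was the highest library there. The 3 Or5ak entries were in α-KG 1 alone. Family Or13, with 9 entries on chromosomes 4 and 5, had 6 in each α-KG library, against 9 in control 1 and 5 in control 2. Families Or1, Or2, Or6, Or8, Or10 and Or12 held 6 to 12 entries each. In Or8, α-KG 2 listed 2 of 7 entries and α-KG 1 listed 1, against 5 in control 1 and 3 in control 2.

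Related copies often differed in listing, as did adjacent entries, of which 18 of 137 pairs had the same listing. Whether related copies differ more or less often than other pairs was not tested. Olr550 has 2 gene IDs, 1 listed in α-KG 1 alone and 1 in control 2 alone. Olr845 also has 2, of which 1 was in α-KG 1 and control 1 and the other in α-KG 2 and both controls. Over the 110 windows compared base by base without gaps, the highest identity of a pair was 73.3%, for Olr831 and Olr832. Olr774 and Olr776, at 69.3%, were listed in control 1 alone and in both controls. Olr824 and Olr828, at 66.7%, were listed in all 4 libraries and in control 1 alone. Olr625 and Olr631, at 65.0%, were both in control 2 alone. How reads that match several copies were assigned is not given, and its part in the listing of single genes was not tested.

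The windows were poor in G and C, as those of other olfactory receptors were. GC content averaged 35.0% ± 5.35 (SD) in the 110 windows, against 36.9% ± 5.93 in 810 windows of other receptors and 53.1% ± 11.5 in all 27457 RefSeq windows. Of RefSeq windows with ATG at the annotated start that belong to no receptor, 1823 averaged 49.0% ± 11.2. The 164 windows of receptor genes numbered in the range but without an entry averaged 33.2% ± 5.34, within 1 SD of the listed ones. Members had 1.25 ± 1.503 CpG dinucleotides per window, and 41 of 110 had 0, against 12.4 ± 12.1 in all windows. By number of libraries the GC content was 33.5% ± 4.88 for 1 library (46 entries), 34.2% ± 4.27 for 2 (30), 38.1% ± 5.96 for 3 (25) and 36.2% ± 5.77 for 4 (10), which overlap widely.

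Base composition went with chromosome more than with listing in α-KG 2. Entries that α-KG 2 listed had windows with 37.2% ± 6.27 GC (27 entries), and those it did not list 34.2% ± 4.80 (84 entries). On chromosome 3 alone the values were 33.5% ± 4.23 for 14 entries in α-KG 2 and 33.3% ± 4.25 for 72 entries not in it. The 25 entries on chromosomes 4 and 5 averaged 40.5% ± 5.02 and the 86 on chromosome 3 33.3% ± 4.23. Chromosome, family and base composition vary together in these genes, and their part in the listing was not tested.

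**Figure D5:**
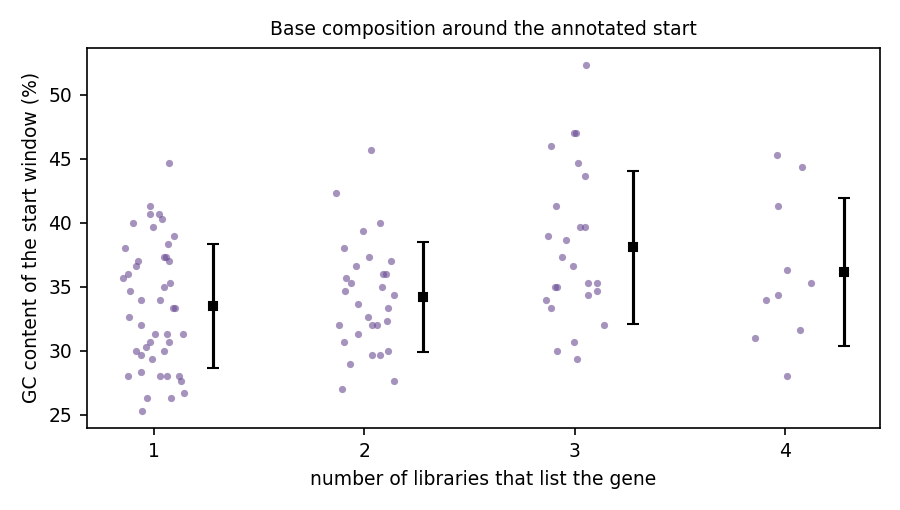
GC content of the window of 300 bases around the annotated start (%, y axis) for each entry with a window, by the number of libraries that list it (x axis). Points are entries, and squares with bars are the mean and SD, from 33.5% at 1 library to 38.1% at 3 libraries, with ranges that overlap.

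Letters of homeodomain and Ebf sites, which are known from receptor promoters of the mouse, and of a TATA box were searched in the windows on both strands, with overlaps allowed. The letters TAATGA, a homeodomain-type site, were in 37 of 110 windows (33.6%), against 24.4% of the 164 numbered receptor genes without an entry, 27.9% of the 810 other receptor windows and 10.9% of all RefSeq windows. The letters TAATTA were in 19 (17.3%), against 25.0%, 18.4% and 5.35% in the same order. TATAAA was in 44 (40.0%), against 51.2%, 34.8% and 14.3%. CCCNNGGG, a core of sites for Ebf factors, was in 0 of 110 windows, against 0.61%, 1.48% and 12.7%. These shares are thus near those of olfactory receptors in general. A match is a string of letters, and windows poor in G and C hold strings of A and T more often. Among the printed windows, Olr821 has TAATGA and TATAAA on the minus strand, Olr824 has TATAAA on the plus strand, Olr716 and Olr832 have it on the minus strand, and Olr705 and Olr831 hold none of the 4 motifs.

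Genes that act downstream of these receptors or in their transport mostly had an entry in every library, which also held for 62.8% of all listed genes. Of 18 genes for olfactory transduction and receptor transport, 16 had an entry, and α-KG 1 listed 15 and α-KG 2 listed 16 of these, against 15 in each control. In all 4 libraries were 15 of them, including Gnal, Adcy3, the channel subunit gene Cnga2 and Rtp1, which encodes a protein that brings receptors to the cell surface. Its relative Rtp2 was in α-KG 2 alone. Cnga4 and Omp, the gene of olfactory marker protein, had no entry. Of 18 genes for receptor choice and heterochromatin, 16 had an entry, and α-KG 1 and α-KG 2 listed 14 each, against 13 in control 1 and 14 in control 2. Lhx2 and Ldb1, which act together at receptor gene enhancers in mouse olfactory neurons, were among the 13 in all 4 libraries. Ehmt1, a histone H3 lysine 9 methyltransferase gene, was in α-KG 1 alone, Cbx5, which encodes a heterochromatin protein, in α-KG 2 alone, and Ebf4 in control 2 alone. Neither list had a control-only or an α-KG-only gene. Those patterns held for 2.30% and 3.25% of all listed genes, so lists of 16 entries would hold few or none. Whether the lists differ from all listed genes in this was not tested. Of 5 markers of olfactory sensory neurons, which Omp defines, 4 had an entry, and all 4 of these were in every library. The 5 markers are also on the list for olfactory transduction and receptor transport, so they add no separate count.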

How the data were processed

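The authors deposited, for each H3K27me3 library, a list of genes with a peak as 3 text columns without a header: Ensembl gene ID, symbol and protein domain names. It holds no count, score or position. CASAVA, BWA, MACS2 and build rn6 are named, without role or version, per the submitters' processing notes. Peak settings, use of the input and the way peaks were assigned to genes are not stated in these sources. Depth is therefore unknown.

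Entries whose symbol is Olr and a number from 401 to 850, case ignored, were taken from the union of the 4 lists. Members, gene lists and alternatives were chosen with earlier results of these data known. The rule named every control-only and α-KG-only member, members of the longest runs, and genes of 2 pathway lists that differ between libraries. Listings were counted, with no test. Symbols, neighbours and windows come from RefSeq's GRCr8 tables, with a 1 Mb gap between groups. Windows were compared without gaps. Python 3.11.15, pandas 2.3.3, numpy 2.4.6 and matplotlib 3.10.9 were used, and the counting steps were tested on simulated lists. Alternatives were leaving out each library, 1 entry per symbol, other symbol matching, scaling by list length, a replicate block, looser patterns and other definitions of a neighbour.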

Additional observations from a re-analysis of the deposited data

How the results depend on the processing

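Of 44 alternative values, 34 stayed within the spread between replicates or within 1.5 times the count given in the report. Only the difference between the group means, 8 of the 44 values, could reverse its sign, and 0 did. Its bound was the α-KG SD of 29.0 entries, so a change from -34 to -13.5 or to -54.5 counted as staying. The difference between the α-KG and control means ranged from -54.5 to -13.5 entries when 1 library was left out. It was -33.5 with 1 entry per symbol, -36.8 scaled by list length and -34 with the replicate block, the mean of the differences within replicate numbers, which equals the unblocked value. Without 1 library, control-only entries numbered 21 to 39, α-KG-only entries 0 to 18 and entries in every remaining library 14 to 35, since fewer libraries had to share a pattern. Without α-KG 2 the entries in every remaining library were 35. By a looser definition, 78 of the 138 entries were listed in more control than α-KG libraries, and 28 in more α-KG than control libraries. The shares of all listed genes and of the other Olr entries under that definition were not computed, so these counts are not particular to the range. The longest control-only run was 1 gene when only the next whole number counted as a neighbour, since Olr705 and Olr716 are not consecutive. Taking symbols with a suffix changed nothing, as 0 such symbols were listed. No paired test was run, because the members were chosen by the listing that it would test. Without depth, no limit of detection can be given for an unlisted gene.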
